A study of Homo sapiens with 2 samples.

Results

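The nuclear genes of respiratory complexes II to V, with cytochrome c, were described in 22Rv1, a human prostate cancer cell line. They were taken by gene symbol: the SDHA to SDHD genes and the numbered SDHAF genes, every symbol beginning with UQCR, with COX and a digit or with ATP5, and CYC1 and CYCS. Symbols ending in P and a number, which name pseudogenes, were left out. This gave 66 of the 57351 symbols in the table, and 58 of the 66 had a mean over both libraries of at least 1 TPM, a transcript abundance scaled to transcript length and to the total of the library.

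These complexes sit in the inner mitochondrial membrane. Complex II (succinate dehydrogenase) feeds electrons from the citric acid cycle into ubiquinone, complex III passes them to cytochrome c, and complex IV (cytochrome c oxidase) hands them to oxygen. Complexes III and IV pump protons as they do so, and complex V (ATP synthase) uses the returning protons to make ATP. Complex II is built from nuclear genes alone, whereas complexes III, IV and V combine nuclear subunits with subunits encoded in mitochondrial DNA.

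One group (shEIF3F) expressed a short hairpin RNA that targets EIF3F, the gene of a subunit of the eIF3 translation initiation complex, and the other (shCON) a vector control. The cells of both groups were 22Rv1, and total RNA was sequenced from 1 library per group, so no difference given here has an error or a test. Off-target actions of the hairpin and loss of EIF3F cannot be told apart in 1 such library. EIF3F stood at 17.0 TPM in shEIF3F and 991 TPM in shCON, in the direction of the labels. Listed TPM summed to 994055 in shEIF3F and 992454 in shCON, and the depth behind them is unknown. Of 9 luminal prostate markers all were measured. The endothelial markers VWF and CDH5 were listed at 0 in both libraries, and the summed level of 4 leukocyte markers was 0.54 TPM in shEIF3F and 5.87 TPM in shCON. That of 4 fibroblast markers was 26.7 TPM in shEIF3F and 40.2 TPM in shCON, and its part in the results was not tested.

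As a whole these genes held a smaller part of the transcriptome in shEIF3F cells. Their summed level was 19006 TPM in shEIF3F and 33515 TPM in shCON, or 1.91% of all TPM in shEIF3F against 3.38% in shCON. The shEIF3F sum was 56.7% of the shCON sum, and 76.5% after both libraries were rescaled to equal totals without their 100 most abundant genes. In such bulk RNA a change in the cells present and a change in RNA per cell cannot be told apart. Most of the difference lay in a handful of abundant transcripts. ATP5MF, COX6A1, ATP5ME, COX8A, COX6B1 and ATP5MC1 made up 70.5% of it, and without these 6 genes the shEIF3F sum was 77.3% of the shCON sum.

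Gene by gene the picture was not that of a uniform decline. Ratios are log2 of TPM + 1 in shEIF3F over TPM + 1 in shCON, and a ratio of 1 or more, or of -1 or less, was called at least 2-fold higher or lower. By this rule of size 14 of the 58 measured genes were lower, while 25.5% of all 13309 genes tested were lower. At least 2-fold higher were 3 of the 58, against a background of 8.45%. The share of lower genes was thus close to that of the whole transcriptome. The median log2 ratio was -0.46 over the 58 genes and -0.36 over all genes, a gap of -0.11. Ratios ranged from -2.63 for ATP5MC1 to 1.27 for UQCRB, at percentiles 2.95 and 94.6 of all genes. After centring on the median of all genes 10 of the 58 were lower and 5 higher, beside 16% and 14.7% of all genes. With a trend on transcript GC content removed 9 were lower and 3 higher, beside 13.9% and 13.3%. With a trend on transcript length removed 9 were lower and 5 higher, beside 16.3% and 14.6%. The length trend was taken over all genes, where ratio and length were nearly unrelated (Spearman correlation 0.014). Its removal thus acts much like centring and is no correction for the relation with length within the set (0.45). The 7 genes ATP5MC1, ATP5MD, COX8A, COX6B1, ATP5ME, COX11 and COX6A1 were at least 2-fold lower, and UQCRB, ATP5PB and COX7A2L at least 2-fold higher, under every alternative scaling, filter and pseudocount tried on single genes. All of them but ATP5MC1, COX6B1 and COX7A2L share exon bases with another annotated gene, and the part of such overlap in their ratios was not tested.

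**Figure D1:**
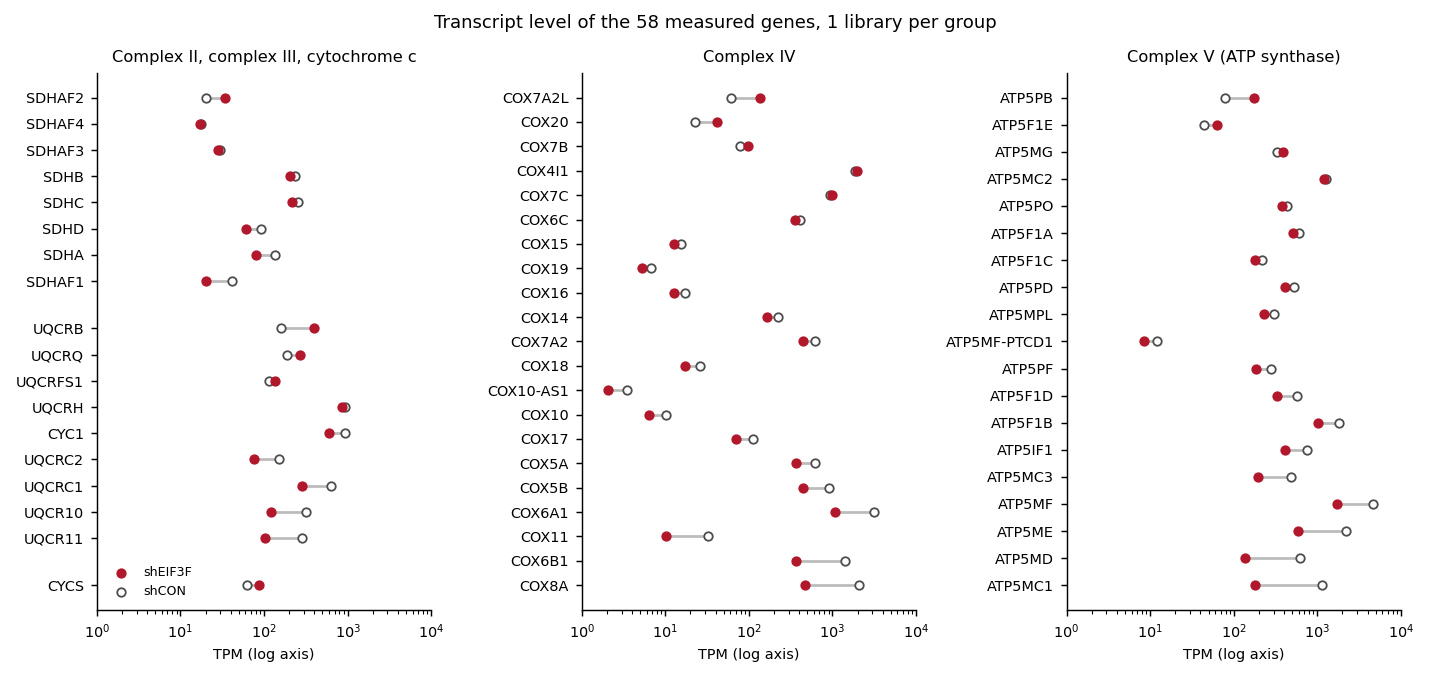
Level of each measured gene in TPM on a log axis, with filled points for the shEIF3F library and open points for the shCON library, sorted by log2 ratio within each complex. Long bars mark genes that differ most, from UQCRB at 392 TPM in shEIF3F and 162 TPM in shCON to ATP5MC1 at 181 TPM in shEIF3F and 1124.5 TPM in shCON.

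Complex II had no subunit past 2-fold, and the ratios of its 4 subunits lay between -0.74 and -0.20. By the same rule 25.5% of all genes were lower and 8.45% higher. SDHA, the flavoprotein that oxidises succinate, stood at 79.8 TPM in shEIF3F and 134 TPM in shCON. SDHB, the iron-sulphur subunit, stood at 204 TPM in shEIF3F and 235 TPM in shCON. The membrane anchors SDHC and SDHD had ratios of -0.24 and -0.61. Pseudogene entries for SDHA were also listed above 0, among them SDHAP1 at 7.87 TPM in shEIF3F and 19.4 TPM in shCON, so a part of the SDHA reads may be shared. The assembly factors of the complex differed from each other. SDHAF1, which helps to insert iron-sulphur clusters into SDHB, was lower at 20.1 TPM in shEIF3F and 41.1 TPM in shCON, a ratio of exactly -1 that was -0.64 once centred on the median of all genes. SDHAF2, needed to attach the flavin to SDHA, was at 34.6 TPM in shEIF3F and 20.4 TPM in shCON (0.73, or 1.09 centred). SDHAF3 and SDHAF4 were nearly level, at 95.6% and 97.5% of their shCON values in shEIF3F. The median of all 8 genes was -0.22, above the median of all genes by 0.14, so it changed sign with centring.

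Of the 9 measured genes of complex III 3 were lower (33.3%) and 1 higher (11.1%), beside 25.5% and 8.45% of all genes. After centring 2 were lower and 1 higher, beside 16% and 14.7%. After rescaling or removal of either trend 1 was lower and 1 higher. All genes then had lower shares of 13.9% to 16.3% and higher shares of 13.3% to 14.9%. Among the core subunits that carry or support electron transfer, UQCRC1 was lower at 287 TPM in shEIF3F and 634 TPM in shCON (-1.14). UQCRC2, its partner core protein, was within 2-fold by a narrow margin, at 76.2 TPM in shEIF3F and 152.49 TPM in shCON (-0.99). Its plain TPM in shEIF3F was 49.97% of that in shCON, so it was within 2-fold only because 1 was added to each TPM. Cytochrome c1, encoded by CYC1, was at 591 TPM in shEIF3F and 926 TPM in shCON (-0.65). UQCRFS1, the Rieske iron-sulphur protein, was at 137 TPM in shEIF3F and 116 TPM in shCON (0.24). Its pseudogene UQCRFS1P1 was listed at 1.31 TPM in shEIF3F and 17.8 TPM in shCON, so reads placed on one may belong to the other.

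The small supernumerary subunits of complex III diverged further. UQCRB, which binds near the ubiquinone site, had the highest ratio of all 58 genes, with 392 TPM in shEIF3F and 162 TPM in shCON (1.27). UQCRQ was at 268 TPM in shEIF3F and 188 TPM in shCON (0.51), and the hinge protein UQCRH at 850.3 TPM in shEIF3F and 944 TPM in shCON (-0.15). UQCR10 and UQCR11 were the lowest. UQCR10 stood at 123 TPM in shEIF3F and 317 TPM in shCON (-1.36), and UQCR11 at 104 TPM in shEIF3F and 283 TPM in shCON (-1.44). Subunits that occur together in 1 complex were thus up to 2.71 log2 units apart in ratio. With the GC trend removed UQCRC1 (-0.41) and UQCR11 (-0.93) were no longer past 2-fold. The median of the 9 measured genes was -0.65 as deposited and 0.083 with the GC trend removed.

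CYCS, the cytochrome c that shuttles between complexes III and IV and also takes part in apoptosis, was at 87.1 TPM in shEIF3F and 62.8 TPM in shCON (0.47). It was within 2-fold, and its ratio lay at percentile 81.0 of all genes.

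In complex IV the nuclear subunits, which surround the mitochondrially encoded catalytic core, split into lower and little changed genes. Of 10 subunit genes 4 were at least 2-fold lower (40%) and 0 higher, beside 25.5% and 8.45% of all genes. COX8A, a small transmembrane subunit, was at 469 TPM in shEIF3F and 2068 TPM in shCON (-2.14). COX6B1, which faces the intermembrane space, was at 371 TPM in shEIF3F and 1426 TPM in shCON (-1.94). COX6A1 was at 1078 TPM in shEIF3F and 3112 TPM in shCON (-1.53). These 3 were among the 4 most abundant nuclear subunits of the complex in shCON and lay at percentiles 5.52, 7.17 and 12.9 of all ratios. COX5B was at 448 TPM in shEIF3F and 909 TPM in shCON (-1.02), but at -0.66 after centring. Other subunits were near parity: COX4I1, the isoform of subunit 4 found in most tissues, stood at 1979 TPM in shEIF3F and 1837 TPM in shCON (0.11), and COX7C at 995 TPM in shEIF3F and 926 TPM in shCON (0.10). COX6C had a ratio of -0.16, COX7A2 of -0.49, COX5A of -0.74 and COX7B of 0.31. COX4I1 was the most abundant nuclear subunit in shEIF3F, and COX6A1 in shCON.

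COX7A2L, a relative of COX7A2 that helps join complexes III and IV into supercomplexes, went against most of complex IV. It was at 136 TPM in shEIF3F and 60.5 TPM in shCON (1.16), while COX7A2 itself was at 442 TPM in shEIF3F and 623 TPM in shCON. COX7A2L therefore made up 23.5% of their joint level in shEIF3F and 8.86% in shCON. The isoforms usually found in muscle, lung or testis, COX4I2, COX6A2, COX6B2, COX7A1, COX7B2 and COX8C, were listed at 0 in both libraries except COX6B2, at 0 TPM in shEIF3F and 0.04 TPM in shCON.

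The assembly factors of complex IV were low in level and mostly within 2-fold. Of 9, COX11 was the only one past it, at 10.1 TPM in shEIF3F and 32.8 TPM in shCON (-1.60). The lower share was thus 11.1%, beside 25.5% of all genes, and 0 were higher, beside 8.45%. COX11 delivers copper to the first catalytic subunit. COX17, the copper chaperone upstream of it, was at 69.4 TPM in shEIF3F and 111 TPM in shCON (-0.67). COX20, a chaperone for the second catalytic subunit, had the highest ratio of the 9, at 41.4 TPM in shEIF3F and 23.0 TPM in shCON (0.82, or 1.18 centred). The haem A enzymes COX10 and COX15 had ratios of -0.61 and -0.24, and COX14, COX16, COX18 and COX19 lay between -0.56 and -0.29. The antisense transcript COX10-AS1 was at 2.04 TPM in shEIF3F and 3.53 TPM in shCON. It shares no exon bases with COX10 in the annotation.

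**Figure D2:**
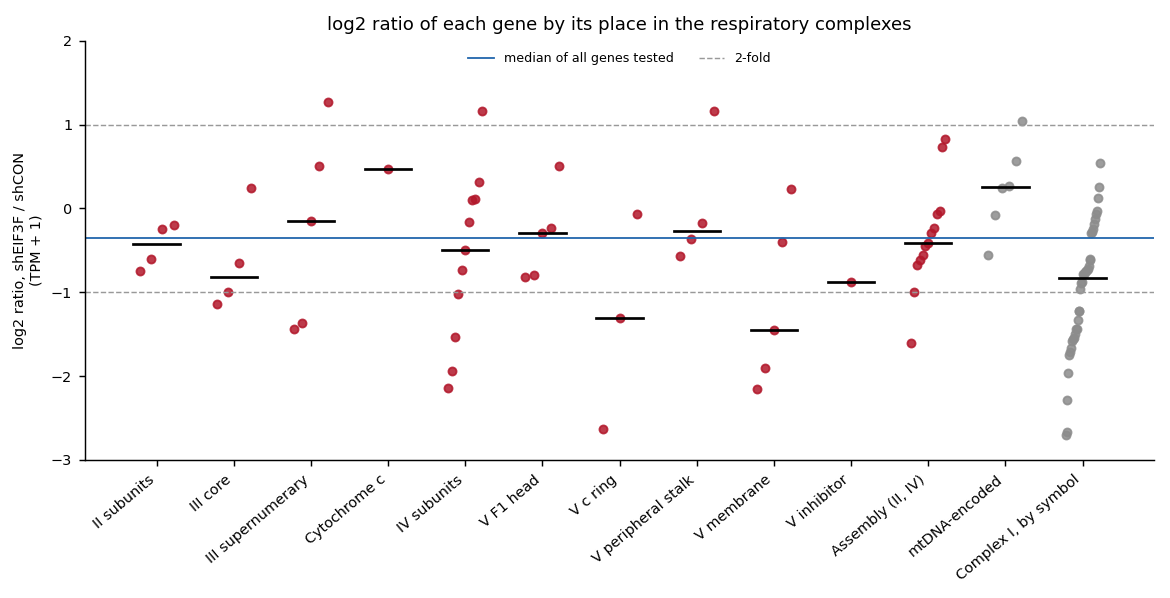
Log2 ratio of TPM + 1, shEIF3F over shCON, for each gene by its place in the complexes, with short black bars at group medians, a blue line at the median of all genes (-0.36) and dashed lines at 2-fold. The COX7A2L point stands with the complex IV subunits, grey points are genes outside the set, and the ATP synthase membrane subunits have the lowest group median (-1.44).

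ATP synthase had the largest gap between its highest and lowest ratio of the 4 complexes, 3.79 log2 units, and its parts differed. Its interquartile range of 0.89 was narrower than the 1.38 of complex III. The F1 head, where ATP is made, had no gene past 2-fold among 5, while 25.5% of all genes were lower and 8.45% higher. The alpha subunit ATP5F1A stood at 516 TPM in shEIF3F and 605 TPM in shCON (-0.23). The catalytic beta subunit ATP5F1B stood at 1027 TPM in shEIF3F and 1813 TPM in shCON (-0.82). The central stalk genes ATP5F1C and ATP5F1D had ratios of -0.30 and -0.80, and ATP5F1E, the smallest F1 subunit, was at 62.7 TPM in shEIF3F and 43.9 TPM in shCON (0.50). ATP5IF1, the inhibitor that blocks ATP hydrolysis when the membrane potential drops, was at 416 TPM in shEIF3F and 763 TPM in shCON (-0.87).

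The peripheral stalk, which holds the head still against the rotor, held the gene with the highest ratio of the complex. ATP5PB was at 177 TPM in shEIF3F and 78.3 TPM in shCON (1.16). The other stalk genes were within 2-fold, with ATP5PO at -0.17, ATP5PD at -0.36 and ATP5PF at -0.57. The 4 stalk genes spanned a 2.32-fold range of TPM in shEIF3F and a 6.74-fold range in shCON.

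The small membrane subunits, which shape the dimers of the complex, were the lowest group. ATP5MF, at 1723 TPM in shEIF3F and 4690.45 TPM in shCON (-1.44), ranked 109 of all genes in shEIF3F and 34 in shCON, where it was the most abundant of the 66 genes. ATP5ME was at 589.6 TPM in shEIF3F and 2216 TPM in shCON (-1.91), and ATP5MD at 138 TPM in shEIF3F and 616 TPM in shCON (-2.15). ATP5MPL had a ratio of -0.40 and ATP5MG of 0.23, with 387 TPM in shEIF3F and 329 TPM in shCON. ATP5MF shares exons with the read-through gene ATP5MF-PTCD1, listed at 8.4 TPM in shEIF3F and 12.0 TPM in shCON, and was at -0.93 with the GC trend removed. Over the 5 membrane genes the shEIF3F sum was 37.6% of the shCON sum, and 50.8% after rescaling.

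The c subunit forms the proton-driven ring of ATP synthase and is encoded by 3 genes that differ in their mitochondrial targeting sequence and give the same mature protein. Their ratios differed. ATP5MC1 had the lowest ratio of the whole set, at 181 TPM in shEIF3F and 1124.5 TPM in shCON (-2.63). ATP5MC3 was at 194 TPM in shEIF3F and 481 TPM in shCON (-1.30, or -0.95 centred). ATP5MC2 was nearly level, at 1207 TPM in shEIF3F and 1268 TPM in shCON (-0.07). ATP5MC2 thus supplied 76.3% of the c subunit transcripts in shEIF3F and 44.1% in shCON, and ATP5MC1 11.4% in shEIF3F and 39.1% in shCON. Their joint level was 1582 TPM in shEIF3F and 2873 TPM in shCON. The table lists 7 pseudogene entries for ATP5MC1 and 3 for ATP5MC2, all at 0 in both libraries.

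**Figure D3:**
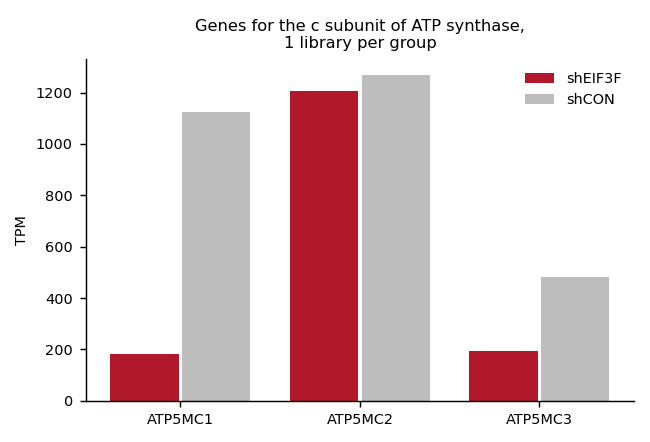
TPM of the 3 genes for the c subunit of ATP synthase, with the shEIF3F library in red and the shCON library in grey. ATP5MC2 is nearly level at 1207 TPM in shEIF3F and 1268 TPM in shCON, while ATP5MC1 is at 181 TPM in shEIF3F and 1124.5 TPM in shCON.

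Pooled over all complexes, the subunits spanned a narrower range of levels in shEIF3F than in shCON. This held in complex IV and in the F1, peripheral stalk and membrane genes of complex V. Complex II, and complex III as a whole, did not share it. The 3 c subunit genes of complex V went the other way, at 181 to 1207 TPM in shEIF3F and 481 to 1268 TPM in shCON. Across the 42 genes that encode structural subunits, cytochrome c or COX7A2L, TPM spanned 60.5 to 1979 in shEIF3F, a 32.7-fold range, and 43.9 to 4690.45 in shCON, a 107-fold range. The SD of log2(TPM + 1) across them was 1.29 in shEIF3F and 1.65 in shCON. Among the 10 complex IV subunits it was 1.17 in shEIF3F and 1.503 in shCON, and among the 5 membrane subunits of complex V 1.39 in shEIF3F and 1.75 in shCON. It was 0.93 in shEIF3F and 0.69 in shCON for the 4 complex II subunits, and 1.19 in shEIF3F and 1.15 in shCON for complex III. Within complex III it was 1.28 in shEIF3F and 1.48 in shCON for the 4 core genes. For the 5 supernumerary genes it was 1.24 in shEIF3F and 0.996 in shCON. Across all genes tested it was 2.06 in shEIF3F and 2.12 in shCON. Across 38 genes with complex I symbols it was 1.70 in shEIF3F and 1.67 in shCON, but without NDUFA4 and NDUFA4L2, the gene with the lowest level of the 38, it was 1.39 in shEIF3F and 1.54 in shCON. Ratios ran lower in genes that were abundant in shCON, with a Spearman correlation of -0.59 across the 42 genes and -0.35 across all genes. The shCON level is also the denominator of the ratio, so part of that relation is built in. Against the shEIF3F level, the numerator of the ratio, the correlation was -0.10 over the 42 genes and 0.21 across all genes.

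Transcripts of mitochondrial DNA for the same complexes did not share the lower sums. MT-CO1 was at 11931 TPM in shEIF3F and 5815 TPM in shCON (1.04), MT-CO2 at 13170.5 TPM in shEIF3F and 13903 TPM in shCON (-0.08), and MT-CO3 at 8536 TPM in shEIF3F and 12541 TPM in shCON (-0.55). The cytochrome b gene MT-CYB had a ratio of 0.56, and MT-ATP6 and MT-ATP8 had ratios of 0.26 and 0.24. The sum of the mitochondrial over that of the nuclear subunit transcripts was 5.09 in shEIF3F and 2.69 in shCON for complex IV. For complex V it was 2.91 in shEIF3F and 1.25 in shCON, and for complex III 0.94 in shEIF3F and 0.48 in shCON. These quotients do not depend on how whole libraries are scaled. Most of the mitochondrial sum of complex V was MT-ATP8, a gene of 207 bases. It held 17904 of 23025 TPM in shEIF3F and 15164 of 19431 TPM in shCON. MT-ATP8 shares exon bases with MT-ATP6, and MT-ATP6 with MT-CO3, and the part of this overlap in the quotients was not tested.

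Genes with the symbols of complex I, the NADH dehydrogenase that starts the chain, served as a comparison. These 38 include NDUFA4, known as a complex IV subunit, and its paralogue NDUFA4L2. The 58 genes of complexes II to V had a median of -0.46, and the 38 genes one of -0.83, also without that pair. Of the 38 genes 16 (42.1%) were at least 2-fold lower, beside 25.5% of all genes, and 0 higher, beside 8.45%. Without the pair 15 of 36 were lower. With 1 library per group the gap cannot be tested, and genes of 1 complex are not replicates. After centring 13 of the 38 were lower (34.2%, beside 16% of all genes), and with the GC trend removed 9 (23.7%, beside 13.9%).

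Other genes needed to build complexes III to V went both ways. Of 32 assembly genes outside the set, 9 were at least 2-fold lower and 1 higher, with a median of -0.38. The lower share of 28.1% was near the 25.5% of all genes, and the higher share of 3.1% stood beside 8.45%. After centring 6 were lower (18.75%) and 3 higher (9.38%), beside 16% and 14.7% of all genes. With the GC trend removed 5 were lower (15.6%) and 2 higher (6.25%), beside 13.9% and 13.3%. FMC1, an assembly factor of ATP synthase, was at 10.5 TPM in shEIF3F and 116 TPM in shCON (-3.35), and shares exons with a read-through gene. CMC1, a partner of the newly made MT-CO1 protein, was at 7.33 TPM in shEIF3F and 75.5 TPM in shCON (-3.20). PET100 was at -1.71, UQCC2 at -1.67, the copper protein SCO2 at -1.46 and TBRG4 at -1.37. OXA1L, the inner membrane insertase, was the higher one, at 241 TPM in shEIF3F and 120.0 TPM in shCON (1.00), and was chosen after its values were seen. Of 12 measured regulators of respiratory genes 3 were lower (25%, near the 25.5% of all genes) and 0 higher (beside 8.45%). The lower ones were MYC (-2.60), the nuclear receptor ESRRA at 31.0 TPM in shEIF3F and 118 TPM in shCON (-1.90), and the coactivator PPARGC1B at 0.88 TPM in shEIF3F and 4.98 TPM in shCON (-1.67). NRF1, a factor with sites in many respiratory promoters, was at 4.84 TPM in shEIF3F and 9.14 TPM in shCON (-0.80). After centring GABPB1, a GABP subunit, and YY1 were past 2-fold higher at 1.14 and 1.01, with deposited ratios of 0.78 and 0.65. They were 2 of the 12 regulators (16.7%), near the 14.7% of all genes, and 3 were lower (25%, beside 16%). YY1 was chosen after its values were seen. PPARGC1A, the best known coactivator of this programme, was at 0.07 TPM in shEIF3F and 0.03 TPM in shCON.

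Ratios within the set went with transcript length and GC content. Across the 58 genes the Spearman correlation of the log2 ratio was 0.45 with the length of the longest annotated transcript and -0.47 with its GC content. Across all genes it was 0.014 with length and -0.32 with GC content. Genes are not independent replicates, and the longest transcript need not be the one expressed. Of the 17 genes with a longest transcript under 1000 bases, 9 were at least 2-fold lower (52.9%) and 0 higher, with a median of -1.02. Of all 1533 genes under that length 30.1% were lower and 17.9% higher. Of the 41 others 5 were lower (12.2%) and 3 higher (7.32%), with a median of -0.29. Of all 11661 genes at or above that length 24.9% were lower and 7.16% higher. Among all genes the median was -0.34 under 1000 bases and -0.36 at or above it. The part of length or GC content in the lower ratios was not tested.

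**Figure D4:**
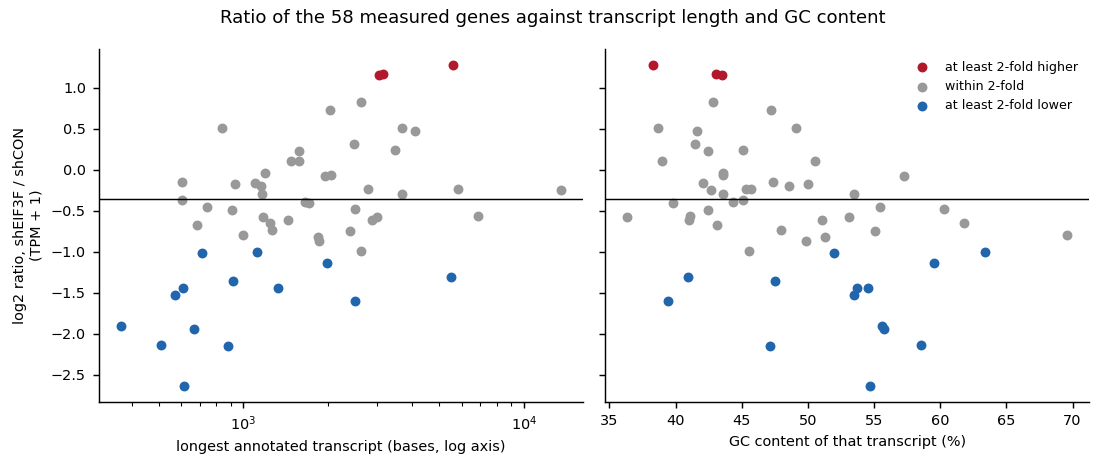
Log2 ratio of TPM + 1, shEIF3F over shCON, of the 58 measured genes against the length of the longest annotated transcript (bases, log axis) and its GC content (percent), with red for genes at least 2-fold higher, blue for genes at least 2-fold lower and a line at the median of all genes. The longest annotated transcripts of the 3 higher genes have 3056 to 5575 bases, beside a median of 2862 over all genes. Those of 9 of the 14 lower genes are under 1000 bases.

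Promoters of these genes are shown because genes of 1 complex differed in ratio. RefSeq start sites and sequences (GRCh38.p14) were matched by symbol for 45 of the 58 measured genes, with 1 start per gene that need not be the one used in these cells. The 150 bases before the start are given for the 4 subunit genes with the lowest and the 2 with the highest ratio that had a sequence, 5′ to 3′ on the strand of the gene. They lie at chr17:48892637-48892786 (plus strand) for ATP5MC1, chr11:63974470-63974619 (plus) for COX8A, chr19:35648173-35648322 (plus) for COX6B1, chr4:674277-674426 (minus) for ATP5ME, chr1:111449314-111449463 (plus) for ATP5PB and chr2:42368958-42369107 (minus) for COX7A2L. Capitals mark a match to a searched motif.
ATP5MC1: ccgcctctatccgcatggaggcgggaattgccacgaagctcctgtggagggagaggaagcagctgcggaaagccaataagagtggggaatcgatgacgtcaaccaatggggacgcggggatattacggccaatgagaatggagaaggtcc
COX8A: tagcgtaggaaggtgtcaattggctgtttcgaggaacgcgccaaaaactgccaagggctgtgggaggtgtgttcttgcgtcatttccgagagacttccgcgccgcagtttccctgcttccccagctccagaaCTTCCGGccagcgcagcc
COX6B1: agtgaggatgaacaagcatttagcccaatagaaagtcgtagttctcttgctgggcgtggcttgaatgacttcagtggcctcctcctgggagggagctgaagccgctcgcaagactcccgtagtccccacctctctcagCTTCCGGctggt
ATP5ME: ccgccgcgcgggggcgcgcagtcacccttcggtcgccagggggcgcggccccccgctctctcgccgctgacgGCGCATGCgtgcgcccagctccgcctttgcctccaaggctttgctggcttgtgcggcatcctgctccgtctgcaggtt
ATP5PB: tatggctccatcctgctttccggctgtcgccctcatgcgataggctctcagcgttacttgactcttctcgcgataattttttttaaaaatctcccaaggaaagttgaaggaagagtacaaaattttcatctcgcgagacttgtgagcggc
COX7A2L: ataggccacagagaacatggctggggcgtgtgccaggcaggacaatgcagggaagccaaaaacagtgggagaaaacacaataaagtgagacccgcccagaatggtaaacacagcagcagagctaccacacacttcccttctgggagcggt

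The motifs were searched on both strands in the window from 250 bases before to 50 after the start, and no matches overlapped in the stretches shown. The ETS core CCGGAAG, bound by the GABP factor among others, was found in 20 of 45 windows (44.4%), against 12.8% of 22199 protein-coding promoters of the same length. The NRF1 motif GCATGCGC was in 9 of 45 (20%) against 3.74%, the YY1 motif AAGATGGC in 6 (13.3%) against 3.53%, the E-box CACGTG in 5 (11.1%) against 8.34%, and TATAAA in 3 (6.67%) against 9.47%. The lower genes COX8A and COX6B1 each hold the ETS core close to the start, on the opposite strand and beginning 18 and 12 bases before it, and ATP5ME holds the NRF1 motif. Of the 10 lower genes with a sequence 6 held the ETS core and 3 the NRF1 motif, and of the 35 others 14 and 6 did. The YY1 motif was in 1 of the lower genes and 5 of the others, the E-box in 3 and 2, and TATAAA in 0 and 3. These splits were not tested.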

How the data were processed

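RNA-seq was made from 22Rv1 cells, with 1 library per group. Trizol extraction and an Illumina TruSeq RNA library kit are given per the labels' protocols. The authors deposited TPM per gene, rounded to 2 decimals. Per the submitters' processing notes the tools included CASAVA and HISAT2 and the build was hg19. No source used here gives the counter, annotation, strand use or filters. Columns were matched by the sample descriptions. TPM keeps no read number, so no counting interval was computed.

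Entries repeating a symbol were summed, and 27 symbols turned into dates and 5531 small RNA symbols were left out. A gene entered the comparison at a mean of at least 1 TPM, with a pseudocount of 1. All measured members could be named, with up to 6 of each other list by absolute ratio. Members and lists were chosen with earlier results of these data known. GENCODE release 29 (GRCh38) gave transcript length, GC content (the longest transcript of the gene's own type) and exon overlap. GC and length trends were removed by subtracting the median of all tested genes within each of 20 bins. Calculations used Python 3.11.15, NumPy 2.4.6, pandas 2.3.3, SciPy 1.17.1 and matplotlib 3.10.9 and were tested on simulated data.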

Additional observations from a re-analysis of the deposited data

How the results depend on the processing

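The count of at least 2-fold lower genes was 14 as reported, 13 to 14 with pseudocounts of 0.1 and 5, with either other TPM filter, with the most abundant entry per symbol or without antisense and read-through entries, and 10 after centring. It was 9 after rescaling, 9 with the GC trend removed, 9 with the length trend removed and 6 among the 27 genes with no shared exon. The count of higher genes was 3 as reported, 5 after centring, 5 after rescaling, 5 with the length trend removed and 1 among genes with no shared exon. The smaller set of genes lowers both counts of the last setting by construction. The removal of the length trend, of genes with shared exons and of NDUFA4 and NDUFA4L2 was chosen after seeing the data. In what follows the order is centred, rescaled, GC trend removed, length trend removed. The median of all members was -0.11, -0.042, -0.18 and -0.053, that of complex III -0.29, -0.21, 0.083 and -0.34, and that of complex V -0.11, -0.079, -0.19 and -0.072. For complex II it was 0.14, 0.21, -0.021 and 0.10. For complex IV it was -0.14, -0.061, -0.40 and -0.097, and for CYCS 0.82, 0.89, 0.56 and 0.83. Removal of the GC trend also puts the median of all genes at 0, so its values compare with the centred ones. Without shared exons the medians were -0.61 for all members, -0.99 for complex III and -0.81 for complex V, and with no TPM filter that of complex III was -0.44 because UQCRHL entered. Centring and rescaling shift all ratios by 0.36 and a median of 0.38, so the sign of the complex II median depends on scaling, and that of complex III on the GC trend. Of the 17 genes past 2-fold, 12 to 13 stayed past it under centring, rescaling, and removal of either trend, and none changed sign. The lost calls were among SDHAF1, UQCRC1, COX5B, UQCR10, UQCR11, ATP5MC3 and ATP5MF. SDHAF2 and COX20 were at least 2-fold higher after centring, rescaling or removal of the length trend. Outside the set, with the GC trend removed, 9 against 16 genes with complex I symbols and 5 against 9 assembly genes were lower. The lower share of all genes was 13.9% against 25.5%. These counts were also added after seeing the data. No paired analysis was possible because each group has 1 library, so no library could be left out. Depth is unknown, and no limit from it can be stated.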

Other observations

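NDUFA4, named as a complex I gene but known as a subunit of complex IV, was near parity at 207 TPM in shEIF3F and 212 TPM in shCON (log2 ratio -0.03), and was chosen after its values were seen. The table listed 149 pseudogene entries named after 32 of the genes, of which 9 were above 0 in either library, summing to 22.6 TPM in shEIF3F and 50.6 TPM in shCON. The largest difference among them was UQCRFS1P1. Of the 58 measured genes 31 share exon bases with another annotated gene on either strand, so 27 had exons of their own alone. Among the 31, 8 were lower and 2 higher, while 25.5% of all genes were lower and 8.45% higher.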
